A study of Homo sapiens with 5 samples.

Results

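This report concerns 9 keratin genes, KRT7, KRT16, KRT17, KRT18, KRT80, KRT81, KRT83, KRT86 and KRT87P, among the 2694 genes for which values were deposited from TC28a2 cells. TC28a2 is an established human chondrocyte cell line, which the labels place in costal cartilage. Cells kept in growth medium with 10% fetal bovine serum (2 libraries) were compared with cells kept in hypertrophic medium (3 libraries), with total RNA taken on day 5. In hypertrophic medium serum was reduced to 1%. The growth factors BMP-2 (100 ng/ml) and GDF-5 (10 ng/ml) and the hormones T3 (1 µM) and dexamethasone (10 nM) were added, together with ascorbic acid (50 µg/ml), β-glycerophosphate (10 mM) and an ITS-A supplement (1%), so that less serum and every added factor changed together. All libraries come from the same line, and a change in RNA per cell cannot be told apart from a change in the number of cells that express a gene.

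The genes were chosen by their symbols among the deposited rows, and those rows appear to be the genes that the study selected by a fold limit and a false discovery rate between the media. Growth and hypertrophic medium libraries were apart in 2667 of the 2694 listed genes. The differences of the keratins between the media are therefore given as a description, without a test. The values are on a log2 scale after RLE normalization, in which a size factor per library is taken from its ratios to the typical library, and they ran from 2.20 to 20.86. A difference on this scale need not equal the log2 fold change on which genes were selected, since rows with small differences, such as KRT16 with -0.46, are listed and the transformation is not described further, and the number of reads behind a value is unknown. In the listed genes the median value per library was 8.17 and 8.18 with growth medium and 8.43 to 8.62 with hypertrophic medium.

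Keratins are the intermediate filament proteins of epithelial cells. Each filament is built from pairs of a type I and a type II keratin, and the pair in use differs between simple epithelia, stratified epithelia, wounded skin and the hair shaft. KRT18, a type I keratin, and KRT7, a type II keratin, belong to simple epithelia. KRT16 and KRT17, both type I, are made by stressed or wounded epidermis and by skin appendages. KRT81, KRT83 and KRT86 are type II keratins of the hard keratin of the hair shaft, KRT87P is a pseudogene of the same group, and KRT80 is a type II keratin of differentiating epithelia. Cartilage is a mesenchymal tissue whose main intermediate filament protein is vimentin.

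The labelled cell type was compared with fixed marker genes. Of 17 chondrocyte markers, 5 were listed, namely SOX9, ACAN, COL2A1, COL9A2 and COL9A3, and over the 5 libraries their values ran from 6.63 for ACAN to 11.59 for SOX9 and COL9A3. Of 11 fibroblast and mesenchymal markers, 6 were listed, and their values ran from 6.69 for PDGFRA to 20.86 for FN1. Of 12 keratinocyte markers only SFN was listed, at 4.36 to 5.00, and KRT5, KRT14 and TP63, which define basal keratinocytes, were not. A gene that is not listed has no value here, and whether it was undetected or unchanged cannot be told apart.

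All 9 keratin genes were lower in hypertrophic medium, and in each the 3 hypertrophic medium libraries lay below both growth medium libraries. Over all listed genes, 36.5% were lower without overlap in the same way. For 6 of the 9, KRT81, KRT87P, KRT86, KRT80, KRT83 and KRT7, the difference was -1 or lower without overlap, a size that 7.05% of the listed genes had. Under median centring of the libraries KRT18 (-1.16) and KRT17 (-1.14) also passed this limit, and under quantile normalization KRT17 did, while the listed genes lower by at least 1 rose in number from 190 to 565 and 398. The median difference was -2.63 for the 4 hair-type genes, -1.13 for the 2 simple epithelial genes and -0.63 for the 2 stress genes, and it was -1.77 for KRT80. Across all 2694 listed genes the median difference was 0.56.

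**Figure D1:**
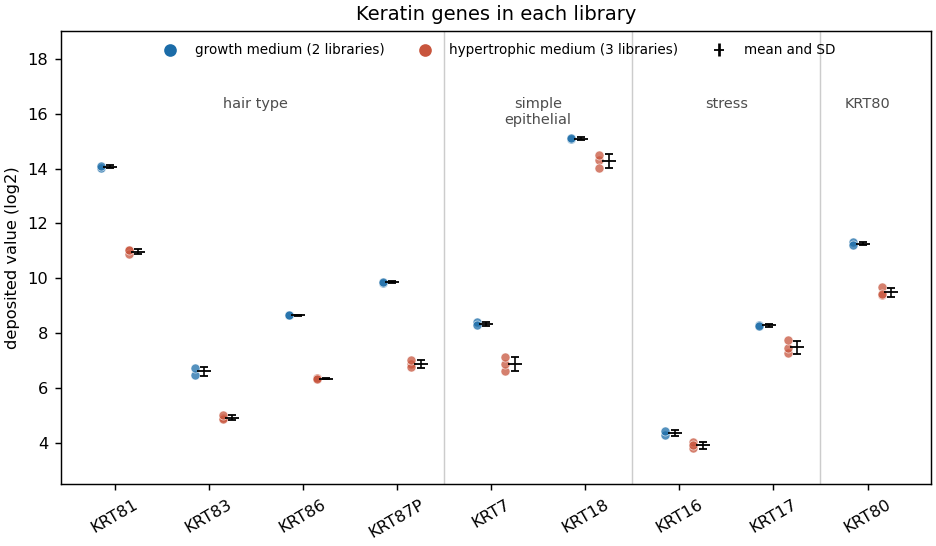
Deposited log2 values of the 9 keratin genes in each library, with growth medium in blue, hypertrophic medium in red, and the mean and SD beside each group (n = 2 and n = 3). In every gene the red points sit below the blue points, and the widest gap is that of KRT81, from 14.03 down to 11.03.

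KRT81, KRT87P and KRT86, of the hair type, had the largest differences of the 9. The order of the hair-type KRT83 and of KRT80 depended on 1 library, since without growth medium replicate 1 they were at -1.79 and -1.73. KRT81, with 9 exons, spans positions 52679697 to 52685318 of chromosome 12 (GRCh37, minus strand). Its values were 14.03 and 14.11 in growth medium against 11.03, 10.88 and 11.02 in replicates 1, 2 and 3 of hypertrophic medium. Its difference of -3.09 was the third largest decrease of the 2694 listed genes, against an SD of 0.059 in growth medium and 0.085 in hypertrophic medium. The pseudogene KRT87P lies on the same chromosome from 52644250 to 52652651 on the minus strand, where GENCODE annotates both a transcribed pseudogene and an lncRNA under this symbol. It was 9.83 and 9.88 in growth medium and 6.89, 6.76 and 7.03 in hypertrophic medium, a difference of -2.96. A gap of 2.80 separated its lowest growth medium library from its highest hypertrophic medium library.

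KRT86 and KRT83 were lower in the files and differed less. KRT86, from 52643084 to 52702947 on the plus strand, was 8.67 and 8.65 in growth medium and 6.37, 6.36 and 6.33 in hypertrophic medium, a difference of -2.30. Its hypertrophic medium libraries were the most alike of the 9 genes, with an SD of 0.022. KRT83, from 52708085 to 52715182 on the minus strand, was 6.48 and 6.73 in growth medium and 4.90, 4.87 and 5.03 in hypertrophic medium, a difference of -1.67. The differences of low genes are smaller in these files. Among the 278 lower genes with a mean value under 6 the median difference was -0.46 and the largest decrease -1.70, so KRT83 was near the end of the range for its level. Over the 4 hair-type genes the hypertrophic medium SD ran from 0.022 to 0.14, and the median SD of all listed genes in that medium was 0.16.

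The transcripts of these 4 genes are so alike that reads can be assigned to the wrong one, and their separate values are uncertain. In the GENCODE transcripts, KRT81 was identical to KRT86 at 94.9% of 1399 aligned bases, to KRT83 at 94.0% and to KRT87P at 93.4%, while it matched KRT7 at 70.0% and KRT80 at 65.2%. Of all stretches of 100 bases in KRT81, 29.4% were also found without a difference in KRT86, 0.9% in KRT87P and 0.0% in KRT83. Stretches of 50 bases were shared at 38.4% with KRT86, 9.0% with KRT87P and 6.2% with KRT83. The following 90 bases of coding exon 2 of KRT81 (chr12:52683972-52684061, minus strand) are shown because KRT86 (chr12:52696893-52696982, plus strand) does not differ from them, while KRT83 (chr12:52713050-52713139, minus strand) and KRT87P (chr12:52649928-52650017, minus strand) differ at 6 bases each. In the KRT81 line capitals mark the bases at which any of the other genes differs, and in the other lines the bases that differ from KRT81.

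KRT81: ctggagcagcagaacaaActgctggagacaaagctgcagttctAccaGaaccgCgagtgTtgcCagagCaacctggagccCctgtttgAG
KRT86: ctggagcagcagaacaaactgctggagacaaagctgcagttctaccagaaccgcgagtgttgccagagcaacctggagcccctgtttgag
KRT83: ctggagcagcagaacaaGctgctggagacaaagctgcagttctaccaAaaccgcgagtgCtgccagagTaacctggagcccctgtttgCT
KRT87P: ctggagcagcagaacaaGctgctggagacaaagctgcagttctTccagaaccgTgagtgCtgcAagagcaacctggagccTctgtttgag

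The next stretch, of exon 5 (KRT81 at chr12:52681795-52681884, KRT86 at chr12:52699072-52699161, KRT83 at chr12:52710670-52710759 and KRT87P at chr12:52647412-52647501), is shown because among the ungapped coding stretches of this length KRT86 differed most from KRT81 in it, at 5 bases. KRT83 differed at 6 and KRT87P at 14, and capitals mark the same as above.

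KRT81: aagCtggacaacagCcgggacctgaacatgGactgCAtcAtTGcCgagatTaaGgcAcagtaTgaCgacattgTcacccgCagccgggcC
KRT86: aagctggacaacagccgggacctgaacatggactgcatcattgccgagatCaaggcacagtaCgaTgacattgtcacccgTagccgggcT
KRT83: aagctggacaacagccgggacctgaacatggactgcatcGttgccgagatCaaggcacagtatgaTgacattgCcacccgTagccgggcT
KRT87P: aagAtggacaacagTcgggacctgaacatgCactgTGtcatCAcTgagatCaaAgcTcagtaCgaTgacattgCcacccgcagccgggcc

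Within a library, the distance of KRT81 from KRT87P differed less between the media than its distance from KRT86. KRT81 exceeded KRT87P by 4.21 ± 0.026 (SD, n = 2) in growth medium and by 4.08 ± 0.084 (SD, n = 3) in hypertrophic medium. It exceeded KRT86 by 5.36 and 5.46 in growth medium and by 4.66, 4.51 and 4.68 in hypertrophic medium, so this distance was smaller by 0.79 and its libraries did not overlap between the media. The distance of KRT86 from KRT83 was 2.19 and 1.92 in growth medium and 1.47, 1.49 and 1.30 in hypertrophic medium. These distances are not levels per length, but, for plain log2 values, gene length drops out when the same distance is compared between the media. How far the smaller differences of the low genes in these files, or reads shared between the genes, enter these distances was not tested.

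KRT80 was lower by 1.77. The gene lies on chromosome 12 from 52562780 to 52585798 on the minus strand, and its values were 11.32 and 11.23 in growth medium and 9.68, 9.39 and 9.43 in hypertrophic medium. Hypertrophic medium replicate 1 was the highest of the 3, and it was still 1.54 below the lower growth medium library. No stretch of 50 bases in KRT80 was shared with KRT7 or with a hair-type gene, so its value does not rest on reads of that length that match them.

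Both simple epithelial genes were lower, KRT7 by more than KRT18. KRT7, on chromosome 12 from 52626304 to 52645970 on the plus strand, was 8.41 and 8.30 in growth medium and 6.63, 6.90 and 7.15 in hypertrophic medium, a difference of -1.46. KRT18, from 53342655 to 53346690 on the plus strand, was 15.06 and 15.12 in growth medium and 14.30, 14.02 and 14.51 in hypertrophic medium, a difference of -0.81. For its level KRT18 was near the middle of the lower genes, since the 299 lower genes with a mean value of 10 or more had a median difference of -0.76. KRT18 exceeded KRT7 by 6.73 ± 0.12 (SD, n = 2) in growth medium and by 7.38 ± 0.28 (SD, n = 3) in hypertrophic medium. KRT8, the usual type II partner of KRT18, was not listed.

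Of the stress keratins, KRT16 had the smallest difference of the 9, and KRT17 and KRT18 had no fixed order. With quantile normalization they were at -1.10 and -0.64, and without hypertrophic medium replicate 2 at -0.78 and -0.68. KRT17, on chromosome 17 from 39775694 to 39781094 on the minus strand, was 8.32 and 8.25 in growth medium and 7.28, 7.46 and 7.74 in hypertrophic medium, a difference of -0.79. The 410 lower genes with a mean value from 6 to 10 had a median difference of -0.78, so KRT17 was in the middle of its level. KRT16, from 39766030 to 39772151 on the minus strand, was among the lowest values of the files, with 4.31 and 4.46 in growth medium and 3.81, 4.04 and 3.92 in hypertrophic medium. Its difference of -0.46 equalled the median of the lower genes with a mean value under 6, and a gap of 0.27 separated the media. KRT6A, KRT6B and KRT6C, the type II keratins made together with KRT16 and KRT17 in wounded epidermis, were not listed.

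**Figure D2:**
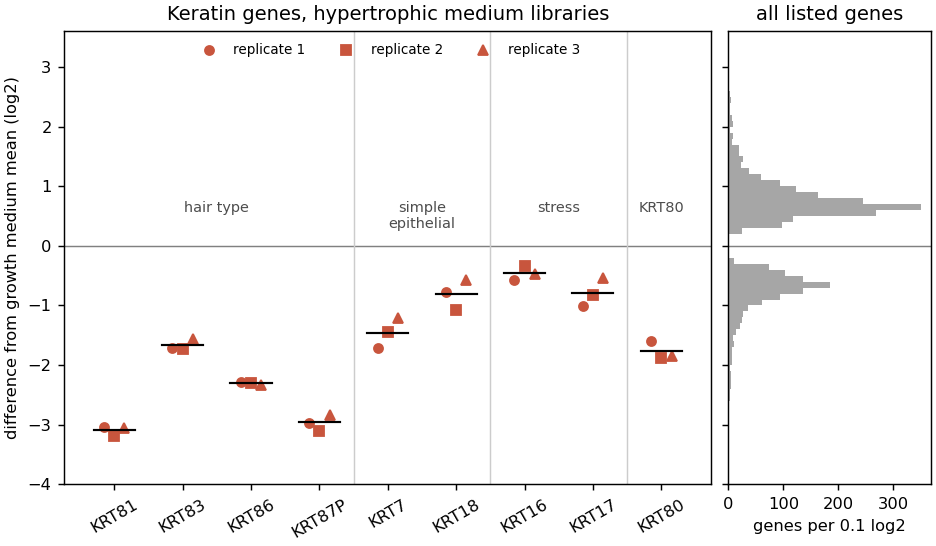
Left, the difference of each hypertrophic medium library from the growth medium mean for the 9 keratin genes (log2), with a black line at the mean of the 3 libraries. Right, the number of all 2694 listed genes by their difference, in steps of 0.1. KRT81 and KRT87P lie near -3, beyond nearly all listed genes, and KRT16, KRT17 and KRT18 lie among the many lower genes between -0.46 and -0.81.

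The hypertrophic medium libraries varied in different ways for the different keratins. In KRT7 and KRT17 replicate 1 was lowest and replicate 3 highest, with differences from the growth medium mean of -1.72, -1.45 and -1.21 for KRT7 and of -1.01, -0.83 and -0.54 for KRT17 in replicates 1, 2 and 3. In KRT18 and KRT81 replicate 2 was lowest. The hypertrophic medium SD of KRT7, KRT17 and KRT18 was 0.26, 0.24 and 0.25, above the median of 0.16 for all listed genes and above that of each hair-type gene. As the SDs rest on 3 libraries, this is a description of these libraries.

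The distances between other keratins within a library also differed between the media. KRT18 exceeded KRT81 by 1.03 and 1.01 in growth medium and by 3.27, 3.14 and 3.50 in hypertrophic medium. The deposited value of KRT7 minus that of KRT17 was 0.09 and 0.05 in growth medium and -0.64, -0.55 and -0.60 in hypertrophic medium. The value of KRT7 minus that of KRT86 was -0.26 and -0.35 in growth medium and 0.26, 0.54 and 0.82 in hypertrophic medium. The signs of these distances do not give an order of levels, because the deposited values are not per length.

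To compare the levels of different genes, the value was taken per kilobase of annotated exon, by subtracting the log2 of the exon length from the deposited value. This treats the deposited values as plain log2 counts, which is not stated, so the order below holds only as far as that does. On this scale KRT18 was highest in growth medium with 13.47 ± 0.045 (SD, n = 2), and KRT81 followed with 13.12 ± 0.059. KRT80 with 9.15 and KRT87P with 9.03 came next, and the gap of 0.12 between them was less than 2 times the larger SD. KRT86 with 7.38, KRT17 with 6.70, KRT7 with 6.35 and KRT83 with 5.70 followed, and KRT16 was last with 3.08. A hair-type keratin thus came next after KRT18 on this scale.

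In hypertrophic medium KRT18 was again highest with 12.66 ± 0.25 (SD, n = 3) per kilobase, and KRT81 was lower than in growth medium with 10.03 ± 0.085. KRT17 with 5.91 stood above KRT86 with 5.08, while in growth medium KRT86 was above on this scale. KRT87P and KRT17 did not differ by more than 2 times the larger SD, and neither did KRT86 and KRT7. The middle of the order depended on the length used. With the longest transcript in place of all annotated exons, KRT7 in growth medium came after KRT87P with 7.65, above KRT86 with 7.49 and KRT17 with 7.41, and the latter were apart by less than 2 times the larger SD. In hypertrophic medium KRT17 with 6.62 ± 0.24 (SD, n = 3), KRT7 with 6.19 ± 0.26 and KRT87P with 6.13 ± 0.14 then came in this order. KRT7 was within 2 times the larger SD of KRT17 and of KRT87P.

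**Figure D3:**
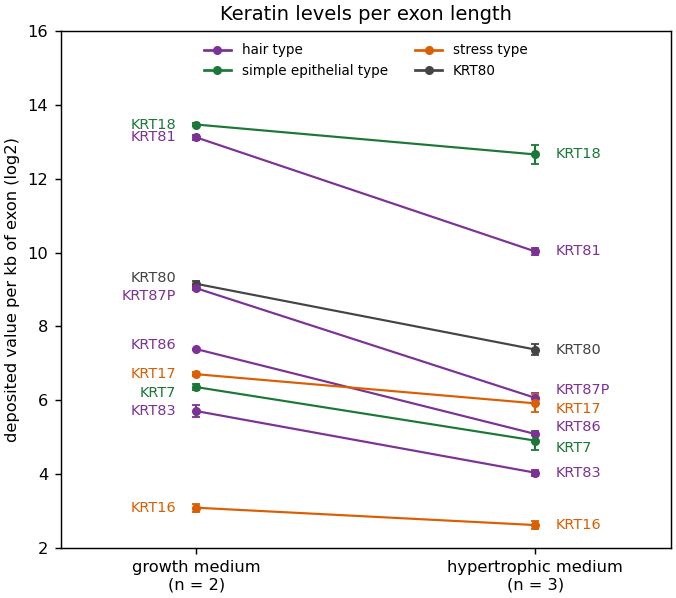
Deposited log2 value per kilobase of annotated exon for the 9 keratin genes in growth medium (n = 2) and hypertrophic medium (n = 3), as mean and SD, with hair-type genes in purple, simple epithelial genes in green, stress genes in orange and KRT80 in grey. KRT18 and KRT81 are 0.35 apart in growth medium and 2.63 apart in hypertrophic medium, and the lines of KRT86 and KRT17 cross with this gene length.

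Of the 9 genes, 6 are neighbours. KRT80, KRT7, KRT87P, KRT86, KRT81 and KRT83 lie within 152.4 kb of the type II keratin cluster on chromosome 12. These 6 include all 5 protein-coding genes that GENCODE annotates there, and all 5 were listed. Of the 20 protein-coding genes in the 627.5 kb between KRT83 and KRT18, none was listed. KRT18, the only type I keratin gene of the cluster among the 9, lies at its other end. From 100 kb before KRT80 to 100 kb after KRT18, 8 of 67 annotated genes were listed, and the 1 outside the keratins was TNS2, which codes for a focal adhesion protein and was higher by 0.72. The listed stress keratins KRT16 and KRT17 lie 3.5 kb apart on chromosome 17.

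The genes of this stretch also overlap. KRT81 lies wholly within the span of KRT86 on the opposite strand, and KRT87P does so as well, but no exon of KRT86 overlaps an exon of either. KRT87P and KRT7, on opposite strands, share 32 bases of exon. The spans of KRT86 and KRT7, on the same strand, overlap by 2887 bases without an overlap of exons. The library kit kept the strand, but the sources used here do not state whether strand was used in counting.

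**Figure D4:**
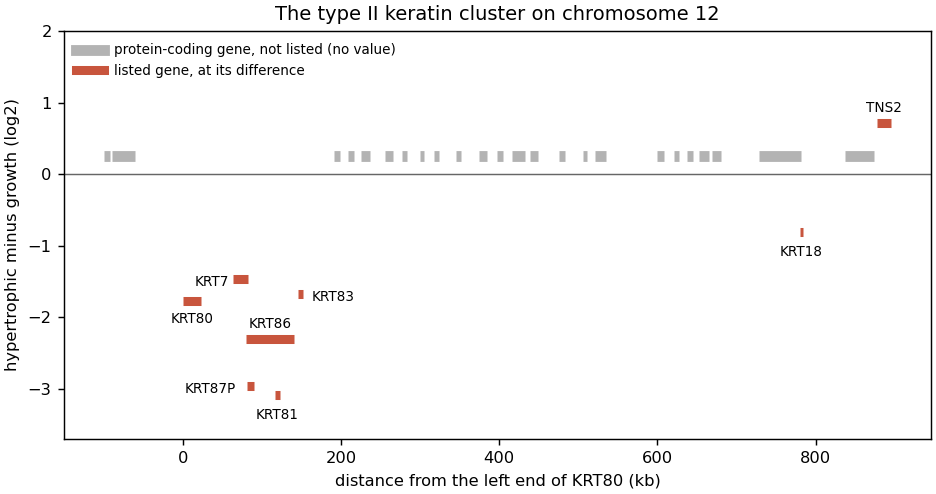
Map of the type II keratin cluster on chromosome 12, with the distance from the left end of KRT80 in kb on the horizontal axis and the difference between the media (log2) on the vertical axis. Red bars are listed genes, as long as the gene and placed at their difference, and grey bars are protein-coding genes that were not listed and have no value. The 6 red bars of the first 152.4 kb all lie below -1.

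Few other keratin genes were in the files. Of 55 type I and type II keratin genes looked for, 8 were listed, 3 of 29 of type I and 5 of 26 of type II, and they are the protein-coding genes described here. No type I hair keratin, the partners of KRT81, KRT83 and KRT86 in the hair shaft, was listed. The only other rows with a keratin symbol were the processed pseudogenes KRT8P36 and KRT8P50, whose sequences match KRT8 at 93.5% and 91.7% of aligned bases and whose values are uncertain for this reason. KRT8P36 was 5.87 and 5.98 in growth medium and 5.55, 5.60 and 5.51 in hypertrophic medium, a difference of -0.37. KRT8P50 was higher in hypertrophic medium by 0.48.

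The profile over the 5 libraries most like that of KRT81 was that of KRT87P, at a Euclidean distance of 0.187 between the values after each gene was centred on its mean. Outside the keratins the nearest were ANKRD1, which codes for a muscle and stress-response ankyrin repeat protein, at 0.309, EDN1, which codes for endothelin-1, at 0.465, and ANXA3, which codes for an annexin, at 0.683. ANKRD1 was 11.95 and 11.91 in growth medium and 8.69, 8.46 and 8.57 in hypertrophic medium. The genes nearest to KRT17 were MYOF, BASP1 and TRIP13, at 0.0658, 0.0851 and 0.103, and those nearest to KRT18 were RRAS2, SMS and SLC25A4, at 0.133, 0.144 and 0.150. KRT17 and KRT18 were each other's nearest keratin, at 0.344. With 5 libraries in 2 groups, these distances are mostly set by the size of the difference between the media.

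The genes that work with keratins or control them were followed in lists that do not hold keratins. Their rows were selected in the same way as those of the keratins. In limma, where the spread of each gene is moderated by that of all others, 984 lower and 1683 higher genes of the 2694 had an adjusted p under 0.05 (Benjamini-Hochberg). Such a p is mostly set by the selection, so none is given for a single gene, and genes are counted by size, at a difference of at least 1 in either direction that also had an adjusted p under 0.05. By this rule 7.05% of the listed genes were lower (190) and 11.8% higher (318), and under median centring of the libraries these counts were 565 and 120. Of 145 genes in the lists, marker lists included, 36 were listed, and 3 were lower and 8 higher by at least 1, with a median difference of 0.62 against 0.56 for all listed genes.

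The desmosome genes, whose proteins anchor keratin filaments at cell junctions, had differences of both signs. Of 21 desmosome and linker genes, 4 were listed, and 1 of them was lower by at least 1. PKP2, which codes for the desmosomal plaque protein plakophilin 2, was 7.35 and 7.29 in growth medium and 5.88, 5.87 and 5.93 in hypertrophic medium. Its difference was -1.42 with a standard error of 0.14. EPPK1, the keratin-binding epiplakin, differed by -0.89, while JUP (plakoglobin) and PPL (periplakin) differed by 0.68 and 0.73. With each library left out in turn, EPPK1 ran from -1.05 to -0.74 and PPL from 0.44 to 1.01. The counts of this list thus depended on 1 library. Of 6 hemidesmosome genes, 2 were listed and neither reached the limit of 1. The integrin genes ITGA6 and ITGB4, which pair at hemidesmosomes, differed by -0.66 and 0.72.

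Of 20 epithelial identity genes only ELF3, SFN and CDH1 were listed, with differences of -0.59, -0.39 and 0.44, and none reached 1. CDH1, the epithelial cadherin, was at 3.96 to 4.62 over the 5 libraries. Of 17 other intermediate filament genes, NES and IFFO2 were listed and vimentin was not. NES, which codes for nestin, was 6.71 and 6.75 in growth medium and 7.49, 8.43 and 8.63 in hypertrophic medium. It differed by 1.46 with a standard error of 0.30, with replicate 1 well below the other two.

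Signalling by the EGF receptor acts on keratin genes in epidermis, and its part in the keratin values was not tested. Of 11 ligand and receptor genes 3 were listed, all of them ligands, and 2 were lower by at least 1. The means of all 3 were lower, as were those of 987 of the 2694 listed genes. NRG1, a ligand of ERBB3 and ERBB4, was 11.20 and 11.05 in growth medium and 9.11, 9.18 and 9.27 in hypertrophic medium. Its difference was -1.93 with a standard error of 0.13. HBEGF, a ligand of the EGF receptor, differed by -1.73 with a standard error of 0.12, and EGF by -0.72. Of 17 AP-1 and KLF factors 6 were listed, and 1 was higher by at least 1. FOS differed by 1.42 with a standard error of 0.19, and JUN, its partner in AP-1, differed by -0.95. ATF3, MAFK, FOSB and KLF9, the last a known target of glucocorticoid and thyroid hormone receptors, differed by -0.79, -0.86, 0.57 and 0.89. JUN, ATF3 and MAFK passed -1 under both scalings, at -1.30, -1.14 and -1.21 under median centring and -1.05, -1.20 and -1.21 under quantile normalization. Of 11 hair follicle regulators, DLX3 and GATA3 were listed with 0.40 and 0.61, and HOXC13 and FOXN1, which act on hair keratin genes, were not. Of 9 steroid, thyroid and retinoid receptor genes, THRA, RARA and RARG were listed with 0.69, 0.55 and 0.72.

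The listed cartilage matrix genes had higher values in the medium in which the keratins were lower. These are RNA values, whereas the study describes a loss of COL2A1 and ACAN protein in TC28a2 cells kept in hypertrophic medium. Of the 5 listed chondrocyte markers, 4 were higher by at least 1, and under median centring and under quantile normalization only COL2A1 of them was. COL2A1, the main collagen of cartilage, differed by 1.53 with a standard error of 0.18. ACAN differed by 1.14, against 0.79 under median centring and 0.95 under quantile normalization. COL9A2 and COL9A3 differed by 1.08 and 1.02, against 0.74 and 0.67 under median centring and 0.67 and 0.61 under quantile normalization. SOX9, the master regulator of chondrocytes, differed by 0.65. ACAN was at 0.98 without growth medium replicate 2 and also without hypertrophic medium replicate 1, and COL9A3 at 0.89 without the latter. Of the 6 listed mesenchymal markers, LUM and COL3A1 differed by 1.30 and 1.07, which were 0.95 and 0.72 under median centring, and COL3A1 was at 0.93 without hypertrophic medium replicate 3. PDGFRA, PDGFRB, COL1A1 and FN1 differed by 0.97, 0.95, 0.64 and -0.62. The mean over the listed chondrocyte markers was 9.06 to 9.08 per library in growth medium and 10.02 to 10.38 in hypertrophic medium, and that over the listed mesenchymal markers 13.37 to 13.52 and 14.01 to 14.34. Their part in the keratin values was not tested.

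**Figure D5:**
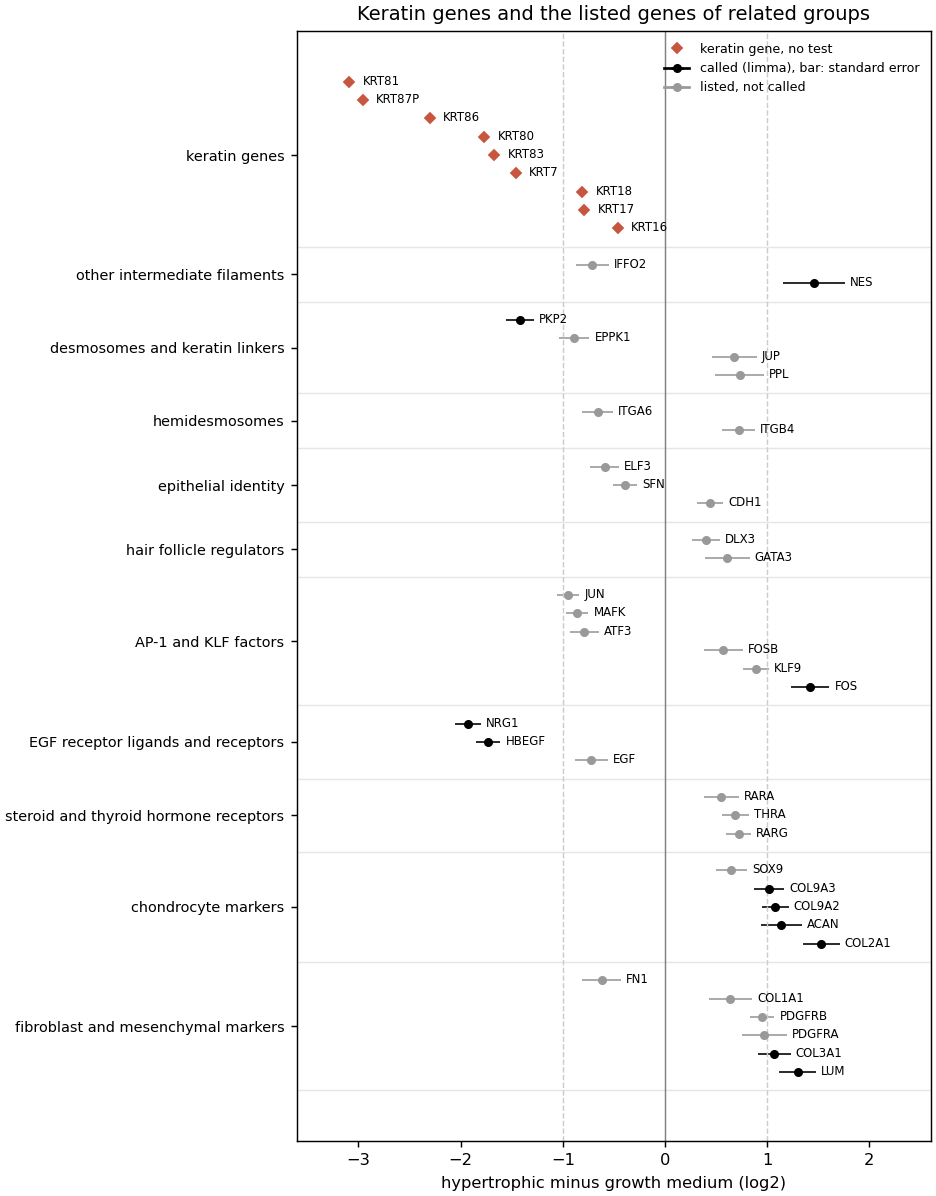
Difference between the media (hypertrophic minus growth, log2) for the 9 keratin genes, as red diamonds, and for the listed genes of the related groups, as points with the limma standard error, black where counted as lower or higher by at least 1 and grey where not. All keratins lie left of 0, the desmosome and AP-1 groups lie on both sides, and the chondrocyte markers lie right of 0.

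The size of the keratin differences depended on the scaling of the libraries. Both scalings were taken over the listed genes alone, of which 1707 had a higher and 987 a lower mean in hypertrophic medium. How far they remove differences by which the rows were selected was not tested. Centring each library on its median over the listed genes takes 0.35 from every difference, so that no lower gene can change sign, and it gave differences from -0.81 for KRT16 to -3.44 for KRT81. With quantile normalization, which gives each library the same distribution of values, they ran from -0.40 for KRT16 to -3.26 for KRT81. With each library left out in turn, KRT81 stayed between -3.14 and -3.05 and KRT16 between -0.54 and -0.39. Since the libraries of the media do not overlap in these genes, leaving out a library cannot turn a sign. In the lists, PKP2, NRG1 and HBEGF were lower by at least 1 under both scalings. Under median centring so were EPPK1, EGF and IFFO2, at -1.24, -1.07 and -1.06, and ITGA6, which just reached the limit, and of these EPPK1 was so under quantile normalization too, at -1.22. With the AP-1 factors named above this made 10 lower genes under median centring, and of the 8 higher genes COL2A1, FOS and NES were still higher by at least 1 under median centring.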

How the data were processed

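Total RNA was prepared with a stranded kit and sequenced. According to the methods, the authors trimmed reads, aligned them to hg19 with HISAT2, counted NCBI genes with StringTie, left out genes with a zero count, and brought the values to a log2 scale with RLE normalization. The submitters' processing notes instead name cutadapt, TopHat2, Cuffdiff and the rat build rn5, and 2690 of the 2694 symbols matched the human RefSeq gene table. The deposited log2 values were used as they are, 1 per gene and library, and depth is unknown. No value was equal in any pair of libraries. The methods call the replicates biological, but neither they nor the labels say whether libraries came from separate cultures, so p-values measure the spread between libraries, which may be technical.

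The members and lists were chosen with earlier results of these data known. The comparison of the media used limma (version 3.58.1, R 4.3.3) over all listed genes, mainly for standard errors and counts by size, with lmFit and a trended eBayes fit and without a block. The fit was tested on simulated data. Named genes were the keratins, the called genes of the lists and the 3 nearest profiles of KRT81, KRT17 and KRT18. A gene of the lists is not reported here and was left out of their counts. Other list genes, TNS2 and the further keratin rows are given to complete a count. Gene models and transcripts came from GENCODE 44 on GRCh37 (the assembly behind hg19) and were aligned with Biopython 1.88. Of the 9 genes, 0 matched the RefSeq promoter table. Alternatives were 2 scalings, the replicate block, each library left out, 2 thresholds, a filter on low values, no trend and another gene length.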

Additional observations from a re-analysis of the deposited data

How the results depend on the processing

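No keratin difference changed sign under either scaling, the replicate block or each library left out. Median centring, the block and leaving out a library could not have turned one, by construction. The class medians moved with the scaling, which was taken over the listed genes alone. Median centring gave -2.98 for the hair-type, -1.48 for the simple epithelial and -0.98 for the stress genes and -2.12 for KRT80, and quantile normalization gave -2.92 for the hair-type and -0.75 for the stress genes and -2.13 for KRT80. Of all listed genes, 190 were called lower and 318 higher. These were 565 and 120 under median centring, 398 and 150 under quantile normalization, 29 and 28 with a difference above 2, and 984 and 1683 by adjusted p alone (limma). For the related lists, 3 lower and 8 higher genes became 10 and 3 under median centring, 7 and 5 under quantile normalization, 0 and 0 with a difference above 2, and 13 and 23 by adjusted p alone. Median centring lowers every difference by the same amount, which shifts calls from higher to lower. FN1, which held the highest deposited value, 20.86, was the 1 list gene without a sign under quantile normalization, at 0.00. That scaling gives the highest gene of each library the same value, so a gene highest in every library is at 0.00 by construction.

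With the replicate number as a block, KRT81 was at -3.11, KRT7 at -1.59 and KRT18 at -0.93, as without hypertrophic medium replicate 3. Replicate 3 exists in that medium only, so the block adds no separate check of the differences. The difference between replicates 1 and 2 in growth medium and that in hypertrophic medium had a correlation over genes of -0.0253. A single contrast per medium cannot tell whether the numbers pair the libraries. All 3 lower and 7 of the 8 higher list calls were kept with the block. Depth is unknown, so what it limits cannot be given.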
